A study of Mus musculus with 8 samples.

Results

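The insulin-like growth factor (IGF) axis was followed through 10 genes: the ligand Igf1, the receptor Igf1r, the binding proteins Igfbp2, Igfbp3, Igfbp4, Igfbp5, Igfbp6 and Igfbp7, the receptor adaptor Irs1 and the binding protein protease Pappa. Every probe set that the array annotation assigns to these symbols alone was read, which gave 28 probe sets of the 45037 tested and 10 of 18193 genes. RNA from mouse adult fibroblasts (MAFs) of the peritoneal fascia of Rb loxP/loxP mice had been hybridized to Affymetrix whole-genome mouse arrays, 2 arrays for each of 4 cell populations and 8 in all. Cre Recurred cells had received adenovirus carrying GFP and Cre recombinase, which deletes floxed Rb, and a retrovirus encoding p53DD, a dominant-negative fragment of p53, then cisplatin (CDDP) for 24 h and a recovery in fresh medium. Cre Naïve cells carried the same viruses and had no CDDP. GFP Recurred cells had received adenovirus with GFP alone and the p53DD retrovirus, and went through the same CDDP exposure and recovery, and GFP Naïve cells were their untreated counterpart. The labels call the Cre populations RB- and the GFP populations RB+. All 4 populations therefore carry floxed Rb alleles and p53DD, and no population without p53DD was hybridized. Infected cells had been selected and pooled. How many surviving cells the recurred populations grew from is not stated. The labels name the replicates biological, and the methods describe independently generated populations. The CDDP dose of the arrayed cells is not in the labels.

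IGF1 is a secreted growth factor that binds the tyrosine kinase IGF1R. The activated receptor phosphorylates IRS adaptors, which recruit PI3K and switch on AKT and mTOR, and AKT in turn holds FOXO transcription factors out of the nucleus. Outside the cell most IGF is held by high-affinity binding proteins, which keep the ligand from the receptor or carry it to the cell surface. Proteases release it again, and PAPP-A, the product of Pappa, cleaves IGFBP4 and IGFBP5. Fibroblasts are a main local source of IGF1 and of several binding proteins, and IGFBP3, IGFBP5 and IGFBP7 are also known as genes of senescent fibroblasts.

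Of the 10 genes, 9 had a promoter window in the RefSeq table for build GRCm38.p6, from 250 bases before to 50 bases after the annotated start. Pappa had no entry there. Windows are shown for Igf1, Igfbp3 and Igfbp4. Of the 10 genes, these held every difference between Cre Recurred and GFP Recurred cells that passed a threshold below with all 8 arrays. The Igfbp5 window is shown because a probe set of that gene was called as higher in Cre Recurred than in Cre Naïve cells. All are printed 5′ to 3′ on the gene's strand, with any TATAAA or TATATA box or GGGCGG motif on either strand in capitals. Igf1 lies on the plus strand at chr10:87860861-87861160, Igfbp3 on the minus strand at chr11:7213874-7214173, Igfbp4 on the plus strand at chr11:99040994-99041293 and Igfbp5 on the minus strand at chr1:72874816-72875115.
Igf1: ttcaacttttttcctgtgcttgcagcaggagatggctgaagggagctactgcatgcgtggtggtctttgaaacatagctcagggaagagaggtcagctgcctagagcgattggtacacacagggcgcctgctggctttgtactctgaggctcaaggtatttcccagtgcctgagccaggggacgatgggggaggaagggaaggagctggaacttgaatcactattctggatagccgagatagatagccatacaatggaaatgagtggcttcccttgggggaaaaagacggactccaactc
Igfbp3: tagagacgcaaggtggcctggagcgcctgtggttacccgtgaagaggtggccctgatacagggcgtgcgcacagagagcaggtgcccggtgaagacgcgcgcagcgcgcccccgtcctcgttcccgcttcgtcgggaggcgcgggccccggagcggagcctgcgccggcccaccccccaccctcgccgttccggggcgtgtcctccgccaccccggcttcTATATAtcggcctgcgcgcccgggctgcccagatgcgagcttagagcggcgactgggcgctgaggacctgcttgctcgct
Igfbp4: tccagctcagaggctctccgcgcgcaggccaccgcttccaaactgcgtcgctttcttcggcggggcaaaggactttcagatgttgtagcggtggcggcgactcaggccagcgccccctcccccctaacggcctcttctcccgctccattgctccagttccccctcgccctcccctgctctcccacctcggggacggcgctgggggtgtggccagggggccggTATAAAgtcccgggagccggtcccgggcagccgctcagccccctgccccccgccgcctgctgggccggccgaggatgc
Igfbp5: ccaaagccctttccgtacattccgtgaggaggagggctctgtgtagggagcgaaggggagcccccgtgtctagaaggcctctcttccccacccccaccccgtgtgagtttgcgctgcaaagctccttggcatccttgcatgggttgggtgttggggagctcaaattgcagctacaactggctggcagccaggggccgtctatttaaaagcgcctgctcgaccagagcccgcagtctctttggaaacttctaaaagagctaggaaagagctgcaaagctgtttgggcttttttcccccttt

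The Igfbp3 window holds TATATA at position -30 from the start and the Igfbp4 window TATAAA at position -28, while neither motif nor GGGCGG was in the Igf1 and Igfbp5 windows. Among 32851 RefSeq promoters of the same length, 13.6% hold TATAAA, 5.67% hold TATATA and 35.7% hold GGGCGG on either strand. GGGCGG itself contains a CpG, and TATAAA and TATATA can overlap each other, though they do not in these windows. CpG dinucleotides numbered 37 in the Igfbp3 window, 27 in that of Igfbp4, 10 in that of Igfbp5 and 6 in that of Igf1. The median window had 7, and fewer than in these windows were found in 94.4%, 84.5%, 56.5% and 43.6% of all windows, in the same order of genes. None of these features was common to the windows of the 3 genes that were lower in Cre Recurred than in GFP Recurred cells. Such matches describe letters in a window and no binding was measured. In gene order Igfbp3 lies next to Igfbp1 on chromosome 11, Igfbp4 lies elsewhere on chromosome 11 between Top2a and Tns4, and Igfbp2 and Igfbp5 are neighbours on chromosome 1.

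The deposited values are log2 signals, so that a difference of 1 is a doubling in signal, and they are comparable across arrays for a given probe set but not between probe sets. Array medians lay between 5.37 and 5.41. The labels were checked on Rb1, whose brighter probe set read 4.98 and 5.45 in Cre Recurred, 6.21 and 5.72 in Cre Naïve, 8.21 and 8.78 in GFP Recurred and 7.98 and 8.07 in GFP Naïve cells, so every Cre array lay below every GFP array. Of 16 fibroblast markers, 15 in Cre Recurred cells and 16 in each other population averaged above the array median. Defining markers of leukocytes (Ptprc, 2.95 to 3.19), epithelium (Cdh1, 2.69 to 2.85), endothelium (Cdh5, 3.63 to 4.32) and adipocytes (Adipoq, 2.50 to 2.78) stayed low on all 8 arrays. Not every marker on those lists did. In each population 3 of 7 leukocyte markers (Cd14, Csf1r and Cd3e), 2 of 6 epithelial markers (Epcam and Cldn3), 1 of 6 endothelial markers (Kdr) and 1 of 6 skeletal muscle and adipocyte markers (Des) averaged above the array median. Cd14 was the brightest of them, at 8.88 to 9.94, and Csf1r read 6.37 to 8.19. The fibroblast markers were not level across the populations, however. Their summed linear signal was 57266.5 and 87862.9 on the Cre Recurred arrays, against 89102.5 and 93404.3 in Cre Naïve, 96185.7 and 111262 in GFP Recurred and 84231 and 85779.6 in GFP Naïve cells. The summed signal of 8 mesothelial markers, the lining cells of the same body cavity, was 475 to 738 in Cre Recurred cells and 242 to 307 across the other 6 arrays. Msln was the brightest of these, at 8.85 and 7.82 in Cre Recurred cells and 6.15 to 6.98 on the other arrays. Not all 8 rose. Wt1 and Krt18 averaged lowest in Cre Recurred cells, Upk3b stayed between 3.85 and 4.14, and Lrrn4 between 2.71 and 2.99.

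**Figure D1:**
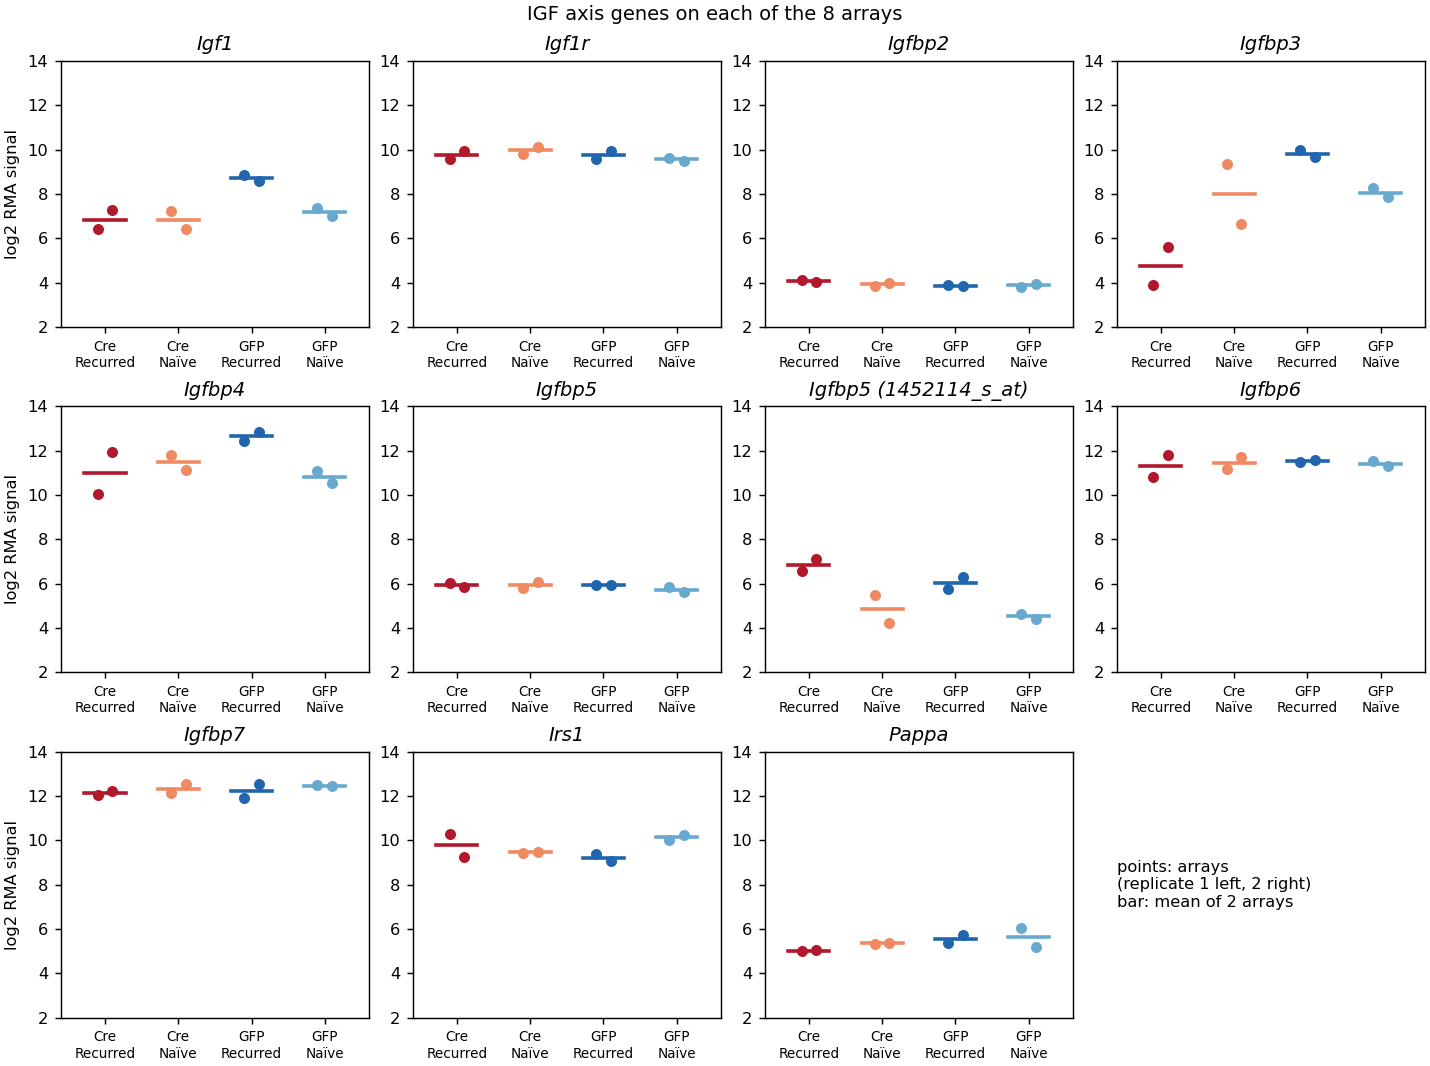
Each panel plots the log2 RMA signal of 1 gene at its brightest probe set, with a further panel for the other Igfbp5 probe set; points are the 2 arrays of each population and bars their mean. Igfbp3 spans 6.09 log2 units between Cre Recurred replicate 1 and GFP Recurred replicate 1, while Igf1r, Igfbp6 and Igfbp7 stay within 1 log2 unit over the 8 arrays.

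The ligand was lower in the RB-deficient recurred cells than in the RB-proficient recurred cells. Igf1 read 6.40 and 7.30 in Cre Recurred cells, against 8.84 and 8.57 in GFP Recurred cells, at its brightest probe set (1452014_a_at). Both Cre Recurred arrays lay below both GFP Recurred arrays. The log2 difference was -1.86 (95% interval -2.71 to -1.0, a 3.62-fold lower signal) with a limma adjusted p of 0.073, and the other 3 Igf1 probe sets gave differences of -1.58 to -2.56 with adjusted p values of 0.052 to 0.095. All 4 therefore passed the thresholds the study named, 1.5-fold with a false discovery rate under 25%, and none passed an adjusted p of 0.05. As these are bulk RNA samples, fewer cells expressing a gene and less RNA per cell cannot be told apart.

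Between the untreated populations no difference was called. Igf1 read 7.24 and 6.41 in Cre Naïve cells, against 7.36 and 7.01 in GFP Naïve cells, and these arrays overlapped. The log2 difference was -0.36 (95% interval -1.21 to 0.49). Cre Recurred minus Cre Naïve was 0.02 (95% interval -0.83 to 0.88) and was not called. In the GFP cells Igf1 was 1.52 higher in GFP Recurred than in GFP Naïve (95% interval 0.66 to 2.37), and both recurred arrays lay above both naïve arrays at all 4 probe sets, with differences of 1.48 to 2.19. The limma adjusted p values of that contrast were 0.71 to 0.86, so limma called none. A statistic of the type of Significance Analysis of Microarrays (SAM), which the study names, called all 4. It called 464 of all probe sets in this contrast, where limma called 6. Averaged over naïve and recurred cells, Cre minus GFP was -1.11 (adjusted p = 0.233), and 3 of the 4 probe sets were past the limits named above. When an array was left out, its population kept 1 array, and its own spread was then not measured. The call between the recurred populations was lost at 1452014_a_at without GFP Recurred replicate 1 (-1.72, adjusted p = 0.324), without GFP Recurred replicate 2 (-1.99, adjusted p = 0.377) and without Cre Recurred replicate 1 (-1.41, adjusted p = 0.326).

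The receptor was not called in any comparison. Igf1r, the kinase that binds IGF1, read 9.58 and 9.96 in Cre Recurred, 9.82 and 10.14 in Cre Naïve, 9.60 and 9.94 in GFP Recurred and 9.64 and 9.51 in GFP Naïve cells at its brightest probe set. Cre Recurred minus GFP Recurred was -0.0012 with a 95% interval of -0.46 to 0.46. None of its 5 probe sets passed, and the differences between the recurred populations ran from -0.04 to 0.37.

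Irs1, the adaptor that couples the receptor to PI3K, had a different pattern. It read 10.30 and 9.28 in Cre Recurred, 9.44 and 9.50 in Cre Naïve, 9.39 and 9.07 in GFP Recurred and 10.04 and 10.23 in GFP Naïve cells. Both GFP Recurred arrays lay below both GFP Naïve arrays, and the log2 difference was -0.90 (95% interval -1.64 to -0.17, adjusted p = 0.871). The Cre Recurred replicates lay far apart, so that Cre Recurred minus GFP Recurred was 0.56 (95% interval -0.18 to 1.29). Neither comparison passed. Without Cre Recurred replicate 2 the difference between the recurred populations was 1.07, whereas without Cre Recurred replicate 1 it was 0.04. Either leaves 1 Cre Recurred array, whose population's spread is then not measured, so only the differences are given. Cre Recurred minus Cre Naïve, 0.32 with all arrays, was 0.83 without Cre Recurred replicate 2 and -0.20 without replicate 1.

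Igfbp3, the main IGF carrier of serum and a secreted product of senescent fibroblasts, varied more than any other of the 10 genes. It read 3.90 and 5.60 in Cre Recurred, 9.34 and 6.66 in Cre Naïve, 9.99 and 9.66 in GFP Recurred and 8.28 and 7.85 in GFP Naïve cells (probe set 1423062_at). Both Cre Recurred arrays were thus the lowest of the 8, and both GFP Recurred arrays the highest. Cre Recurred replicate 1 lay near that array's lower quartile over all probe sets, 3.81, and the table holds no detection calls, so how far below this the transcript was could not be read. Cre Recurred minus GFP Recurred was -5.07 (95% interval -7.11 to -3.03, 33.6-fold lower, limma adjusted p = 0.057). The other probe set, 1458268_s_at, gave -4.42 (adjusted p = 0.061).

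Against their own untreated cells the Cre Recurred cells were also lower in Igfbp3, without a call. The log2 difference was -3.24 (95% interval -5.28 to -1.21, adjusted p = 0.303) at 1423062_at and -2.77 (adjusted p = 0.310) at 1458268_s_at. The Cre Naïve replicates were 2.68 apart, the widest gap of any of the 28 probe sets within a population, where the median gap over all probe sets was 0.195. The recurrence difference was -4.58 without Cre Naïve replicate 2 and -4.09 without Cre Recurred replicate 2. It was smaller without Cre Naïve replicate 1 (-1.90) and without Cre Recurred replicate 1 (-2.39). Each of these leaves 1 array in a compared population, so only the differences are given. In GFP cells recurrence went with a higher signal, 1.76 (95% interval -0.28 to 3.79, limma adjusted p = 0.871). The SAM-type statistic called both Igfbp3 probe sets in GFP Recurred minus GFP Naïve. The naïve populations differed by -0.07 with a wide 95% interval of -2.10 to 1.97.

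The Igfbp3 call between the recurred populations was lost without GFP Recurred replicate 1 (-4.90, adjusted p = 0.288), without GFP Recurred replicate 2 (-5.24, adjusted p = 0.350) and without Cre Recurred replicate 1 (-4.22, adjusted p = 0.287). Under these settings the number of all probe sets called was between 42 and 346, against 3988 with the 8 arrays. The direction and a difference beyond -4 log2 units were kept in each. Fibroblast markers moved with this comparison too. Of 16, Dcn, Fap, Fbln1 and Prrx1 were lower and Thy1 higher in Cre Recurred than in GFP Recurred cells at the study's thresholds, with a median difference of -0.53. Of 8 mesothelial markers, Msln, Krt7 and Krt19 were higher and the rest were not called, with Wt1 and Krt18 averaging lower. Des of the 6 muscle and adipocyte markers was also higher, while none of the leukocyte, epithelial and endothelial markers was called. Over all 18193 genes at their brightest probe set, 6.55% were lower, 4.81% higher and 11.4% called in either direction in this comparison. The part of such shifts in the IGF genes was not tested.

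Igfbp4, a binding protein that restrains IGF until PAPP-A cleaves it, followed the ligand. It read 10.03 and 11.92 in Cre Recurred, 11.81 and 11.16 in Cre Naïve, 12.46 and 12.83 in GFP Recurred and 11.11 and 10.54 in GFP Naïve cells (probe set 1437405_a_at). The GFP Recurred arrays were the highest of the 8 at all 6 Igfbp4 probe sets. Cre Recurred minus GFP Recurred was -1.67 (95% interval -3.02 to -0.32, 3.18-fold lower, limma adjusted p = 0.205). Each of the 6 was past the limits that the study set, with differences of -1.30 to -2.11 and adjusted p values of 0.151 to 0.205. They read the same transcript in the same RNA, so they are not independent readings.

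Within the GFP cells Igfbp4 was 1.83 higher in GFP Recurred than in GFP Naïve (95% interval 0.48 to 3.18). The 6 probe sets gave 1.78 to 2.32 with limma adjusted p values of 0.77 to 0.87. Limma thus called none of them, and the SAM-type statistic called all 6. Within the Cre cells the difference was -0.51 (95% interval -1.86 to 0.85) and the arrays overlapped. Cre Recurred replicate 1 was the lowest of the 8 arrays, while replicate 2 lay above both Cre Naïve arrays. The call between the recurred populations was lost without Cre Recurred replicate 1 (-0.73), GFP Recurred replicate 1 (-1.86) or GFP Recurred replicate 2 (-1.49). It was also lost with a trended and robust prior (adjusted p = 0.270). Without Cre Recurred replicate 2 the difference was -2.62. Cre Recurred minus Cre Naïve was -1.45 without Cre Recurred replicate 2, and without replicate 1 its direction turned (0.44).

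Igfbp5, another PAPP-A substrate, which binds extracellular matrix, had probe sets that disagreed. Probe set 1452114_s_at read 6.56 and 7.13 in Cre Recurred, 5.48 and 4.21 in Cre Naïve, 5.77 and 6.32 in GFP Recurred and 4.65 and 4.40 in GFP Naïve cells. Both recurred populations lay above both naïve ones on every array. Cre Recurred minus Cre Naïve was 2.00 (95% interval 1.02 to 2.98, 4-fold higher, limma adjusted p = 0.221) and passed the study's thresholds. GFP Recurred minus GFP Naïve was 1.52 (95% interval 0.53 to 2.50, limma adjusted p = 0.868), which the SAM-type statistic called and limma did not. The difference between the recurrence effects was 0.48 (95% interval -0.91 to 1.87).

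Probe set 1422313_a_at of the same gene read 6.05 and 5.84 in Cre Recurred, 5.79 and 6.06 in Cre Naïve, 5.96 and 5.93 in GFP Recurred and 5.85 and 5.62 in GFP Naïve cells. It stayed within 0.44 log2 units over the 8 arrays, and its Cre Recurred minus Cre Naïve difference was 0.02 (95% interval -0.34 to 0.39). Its values averaged slightly higher over all arrays, so by the rule used here it stands for the gene, although it is the other probe set that moved. The files do not say which transcript ends each one reads. The suffix _s_at marks probes that can match more than 1 transcript. With the mean of both probe sets the gene was 1.01 higher in Cre Recurred than in Cre Naïve cells (adjusted p = 0.162). The call at 1452114_s_at was lost without Cre Recurred replicate 1 (2.28, adjusted p = 0.718), without either GFP Recurred array (adjusted p = 0.436) and without either GFP Naïve array (adjusted p = 0.268). It was also lost with cyclic loess (1.93, adjusted p = 0.259), with the replicate number as a block (adjusted p = 0.276), with the 4 compared arrays alone (adjusted p = 0.561) and with the SAM-type statistic (q = 0.457), a statistic of the type of Significance Analysis of Microarrays (SAM), which the study names. Between the recurred populations the difference at 1452114_s_at was 0.80 (limma adjusted p = 0.401) and was not called by limma with all 8 arrays.

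The remaining binding proteins were not called. Igfbp6, which prefers IGF2, read 10.83 and 11.79 in Cre Recurred, 11.19 and 11.72 in Cre Naïve, 11.50 and 11.57 in GFP Recurred and 11.55 and 11.29 in GFP Naïve cells, and Cre Recurred minus GFP Recurred was -0.22 (95% interval -0.97 to 0.53). Igfbp7, a low-affinity relative that is secreted by senescent cells, read 12.05 and 12.22 in Cre Recurred, 12.16 and 12.53 in Cre Naïve, 11.91 and 12.53 in GFP Recurred and 12.50 and 12.45 in GFP Naïve cells, and the same difference was -0.09 (95% interval -0.62 to 0.44). The other Igfbp7 probe sets gave -0.30 and 0.29. In Cre Recurred minus Cre Naïve 1423585_at gave -0.70 (limma adjusted p = 0.435) and 1437804_at 0.16, and neither was called. Igfbp2, a carrier of the developing embryo and of many tumours, stayed between 3.79 and 4.11 on all 8 arrays, near the arrays' lower quartiles of 3.68 to 3.81, so a change in it could not have been read well. For Igfbp6 a single array mattered, since without Cre Recurred replicate 2 it passed as lower in Cre Recurred than in GFP Recurred cells (-0.70, adjusted p = 0.240), and without Cre Recurred replicate 1 the direction turned (0.26, adjusted p = 0.827).

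Pappa, the protease, was not called either. It read 5.00 and 5.06 in Cre Recurred, 5.35 and 5.39 in Cre Naïve, 5.37 and 5.72 in GFP Recurred and 6.07 and 5.19 in GFP Naïve cells (probe set 1427633_a_at). The Cre Recurred arrays were the lowest, and Cre Recurred minus GFP Recurred was -0.51 (95% interval -1.17 to 0.14, adjusted p = 0.412). Probe set 1432591_at read 3.85 and 3.88 in Cre Recurred and 4.60 and 5.32 in GFP Recurred cells, a difference of -1.10 (adjusted p = 0.382). Its GFP Naïve replicates, 5.97 and 4.06, were 1.90 apart. The third, 1432592_at, stayed between 3.21 and 3.52.

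**Figure D2:**
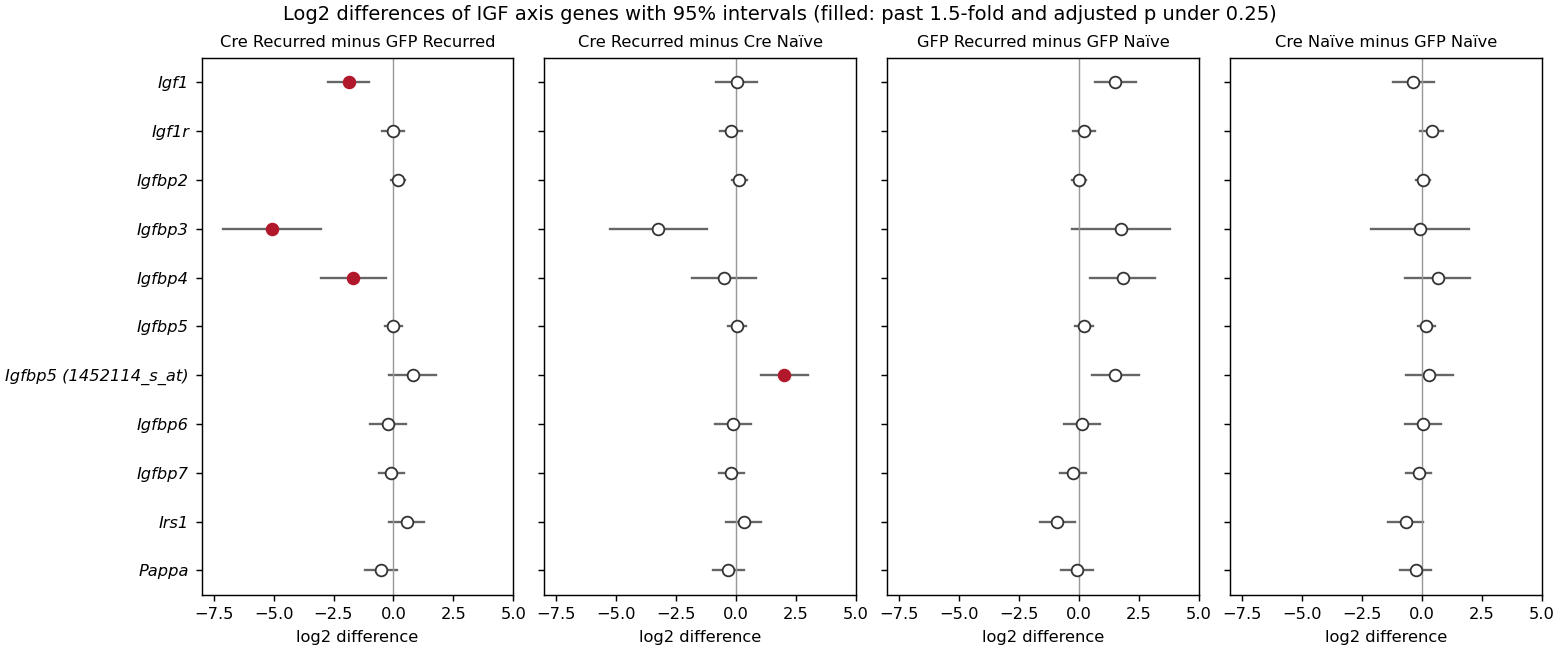
Points are log2 differences and lines their 95% intervals from the limma fit for each gene at its brightest probe set, and for the other Igfbp5 probe set, in 4 comparisons of populations. Filled points passed 1.5-fold and an adjusted p under 0.25: Igf1, Igfbp3 and Igfbp4 in Cre Recurred minus GFP Recurred, and Igfbp5 at 1452114_s_at in Cre Recurred minus Cre Naïve.

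Counted over probe sets, 12 of 28 (42.9%) were lower and 0 were higher in Cre Recurred than in GFP Recurred cells at the study's thresholds, where 4.78% of all 45037 probe sets were lower and 8.85% were called in either direction. They belonged to 3 of the 10 genes, and over genes at their brightest probe set the share was 30% against 6.55% lower. Probe sets of a gene repeat each other, so the count over genes is the one to read. The 10 genes were chosen with earlier results of these data known, so the shares are set side by side as a description and not as a test. With an adjusted p under 0.05 none of the 28 passed, where 0.722% of all did. The arrays did not overlap downwards for 14 of 28 probe sets, against 20.7% of all. The median difference was -0.41 over the 28 probe sets and 0.05 over all. Over the 10 genes at their brightest probe set it was -0.16, against 0.04 over all genes.

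The other comparisons held fewer calls. In Cre Recurred minus Cre Naïve 1 of 28 probe sets (the Igfbp5 one) was higher, against 0.389% of all higher and 1.16% in either direction, and the median was -0.16 against 0.05. This contrast and the one between the recurred populations share the Cre Recurred arrays. In GFP Recurred minus GFP Naïve limma called 0 of 28, against 0.0133% of all. At an unadjusted limma p under 0.05, 12 of the 28 passed, against 5.52% of all. Those 12 belonged to Igf1, Igfbp4, Igfbp5 and Irs1 alone. The SAM-type statistic called 14 of the 28 and 464 of all. The GFP Recurred arrays lay above the GFP Naïve arrays without overlap at 16 of 28 (57.1%), against 20.8% of all. These 16 include every probe set of Igf1, Igfbp3, Igfbp4 and Igfbp5. As probe sets of a gene repeat each other, these counts are not counts of independent members. In Cre Naïve minus GFP Naïve limma called 0 of 28 and 0% of all, with 0 of the 28 and 1159 of all at an unadjusted p under 0.05 and 0 by the SAM-type statistic. Cre minus GFP over naïve and recurred cells had 5 of 28 lower (Igf1 and Igfbp3), against 0.935% of all. This contrast averages the naïve and the recurred difference, on the same arrays. At the brightest probe sets the naïve differences were -0.36 for Igf1 and -0.07 for Igfbp3, and the recurred ones -1.86 and -5.07.

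**Figure D3:**
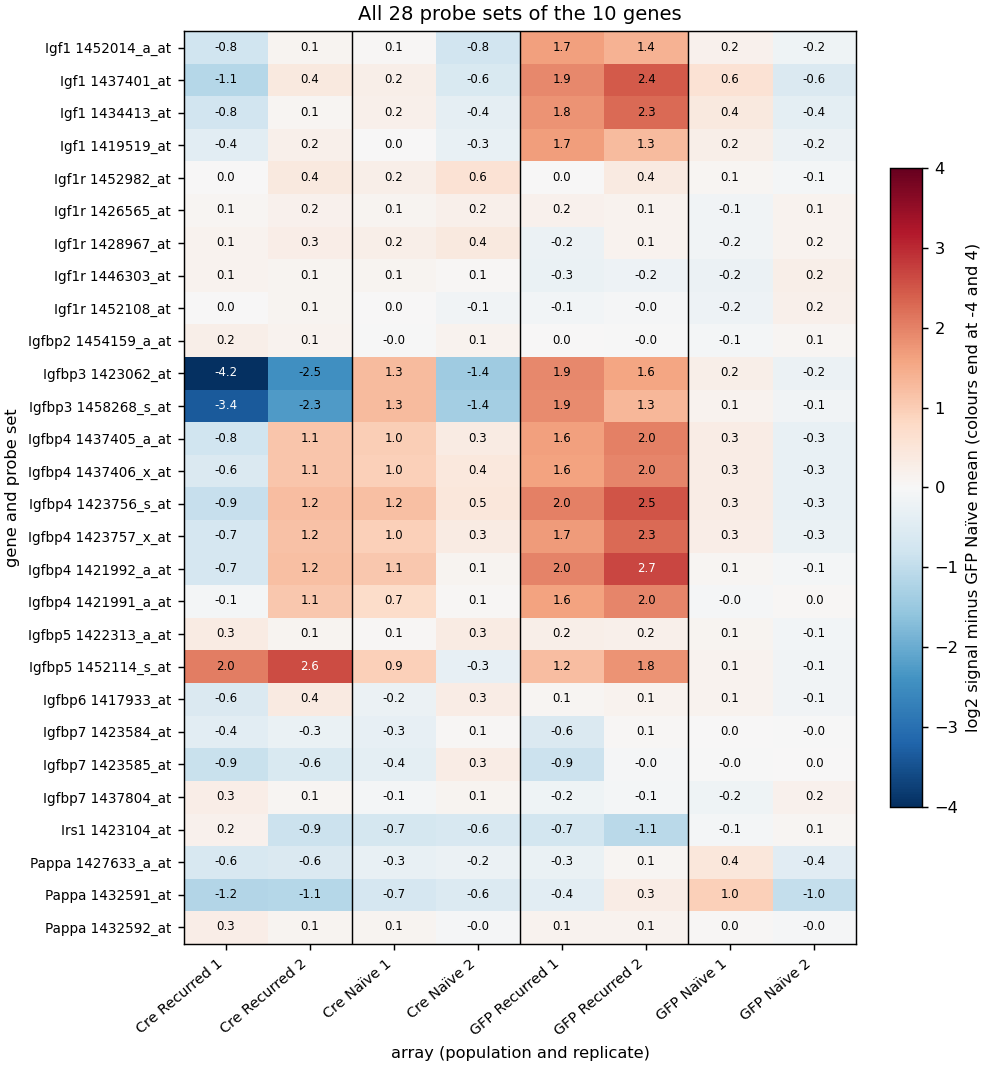
Colours and printed figures give the log2 signal of each of the 28 probe sets on each of the 8 arrays minus the mean of the 2 GFP Naïve arrays, with populations separated by lines. The 4 probe sets of Igf1 and the 6 of Igfbp4 are high on both GFP Recurred arrays, the 2 of Igfbp3 are low on both Cre Recurred arrays, and Igfbp5 is high in the recurred columns at 1452114_s_at alone.

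Whether recurrence acted differently on the RB-deficient and the RB-proficient cells was tested directly, as the recurrence difference in Cre cells minus that in GFP cells. It was -1.50 for Igf1 (95% interval -2.70 to -0.29, limma adjusted p = 0.409), -5.00 for Igfbp3 (95% interval -7.88 to -2.12, adjusted p = 0.331), -2.33 for Igfbp4 (95% interval -4.24 to -0.42, adjusted p = 0.410) and 1.22 for Irs1 (95% interval 0.19 to 2.25, adjusted p = 0.425). Of the 28 probe sets 0 passed the study's thresholds, against 0.4% of all, and 13 of 28 had an unadjusted p under 0.05, against 10.3% of all. Those 13 were the probe sets of these 4 genes. For Igf1 and Igfbp4 the GFP Recurred arrays stood above all others and the Cre Recurred arrays overlapped the naïve ones, whereas for Igfbp3 the Cre Recurred arrays also stood below all others.

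Other genes of the pathway were read from lists. These too were chosen with earlier results of these data known, so their counts are descriptions. Among 7 other ligands, receptors and carriers, none was called in any comparison, including Igfals, the partner of IGFBP3 in serum, and Ins2, whose differences in Cre Recurred minus Cre Naïve were 0.34 and 0.14. Igf2, the receptor's other ligand, is named here after its values were seen. It read 7.14 and 8.90 in Cre Recurred, 9.35 and 7.20 in Cre Naïve, 10.24 and 10.35 in GFP Recurred and 8.95 and 7.17 in GFP Naïve cells, so the GFP Recurred arrays were again the highest. Cre Recurred minus GFP Recurred was -2.27 (adjusted p = 0.260), which just missed. The RNA-binding proteins that hold Igf2 mRNA moved apart, with Igf2bp1 1.41 higher (adjusted p = 0.135) and Igf2bp3 lower, at -0.93 (adjusted p = 0.182), in Cre Recurred than in GFP Recurred cells.

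Several secreted proteins that carry the IGFBP domain were called. Of 11 measured, 4 were lower and 1 higher in Cre Recurred than in GFP Recurred cells, against 6.55% lower and 4.81% higher over all genes, and the median over the list was -0.33 against 0.04 over all genes. The matricellular proteins Ccn3 and Ccn5 were lower by log2 differences of -2.18 (adjusted p = 0.083) and -2.65 (adjusted p = 0.165), and the serine proteases Htra1 and Htra3 by -1.60 (adjusted p = 0.054) and -1.12 (adjusted p = 0.151). Ccn2, which is also known as connective tissue growth factor, was higher by 1.07 (adjusted p = 0.223). Ccn5 read 5.69 and 8.01 in Cre Recurred, 8.84 and 8.06 in Cre Naïve, 8.88 and 10.12 in GFP Recurred and 9.73 and 8.47 in GFP Naïve cells, so here too the Cre Recurred arrays were the lowest. Of 6 other binding protein proteases and PAPP-A inhibitors, Adam12, which cleaves IGFBP3 and IGFBP5, was lower at -1.12 (adjusted p = 0.248). This 1 call of 6 stands beside 11.4% of all genes called in either direction in this comparison. Stc2, an inhibitor of PAPP-A, differed by -0.92 in Cre Recurred minus Cre Naïve (adjusted p = 0.403), and Pappa2, a relative of Pappa, by 0.41 (adjusted p = 0.450).

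Downstream of the receptor, 1 of 7 other adaptors was called at its brightest probe set between the recurred populations. This lies near the 11.4% of all genes called in either direction there. Grb10, an adaptor that restrains the IGF1 and insulin receptors, read 9.80 and 10.76 in Cre Recurred, 11.70 and 11.23 in Cre Naïve, 11.72 and 11.69 in GFP Recurred and 11.51 and 12.02 in GFP Naïve cells. Both Cre Recurred arrays were below the other 6, and Cre Recurred minus GFP Recurred was -1.42 (adjusted p = 0.103). Gab1, a docking protein, was higher by 0.60 at a dimmer probe set (adjusted p = 0.098), and Irs4 differed by -0.21 in Cre Recurred minus Cre Naïve (adjusted p = 0.559).

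In the PI3K, AKT, FOXO and mTOR branch, 17 of 20 listed genes were measured, and 2 were lower and 1 higher in Cre Recurred than in GFP Recurred cells. With 11.4% of all genes called in either direction, 3 of 17 lies near the share over all genes. Foxo1, the transcription factor that AKT inhibits, read 7.26 and 7.87 in Cre Recurred, 8.41 and 8.61 in Cre Naïve, 8.55 and 8.48 in GFP Recurred and 8.51 and 8.42 in GFP Naïve cells. Pik3r1, the regulatory subunit of PI3K, read 8.08 and 8.64 in Cre Recurred, 9.38 and 9.62 in Cre Naïve, 9.45 and 9.27 in GFP Recurred and 9.53 and 9.18 in GFP Naïve cells. For both genes the Cre Recurred arrays lay below the other 6, which were close together. Cre Recurred minus GFP Recurred was -0.95 for Foxo1 (adjusted p = 0.087) and -1.0 for Pik3r1 (adjusted p = 0.093). Both were also called in Cre Recurred minus Cre Naïve, at -0.94 (adjusted p = 0.234) and -1.14 (adjusted p = 0.20), and they were the only genes of these lists called in that comparison. Over all genes at their brightest probe set, 1.65% were called there in either direction and 1.2% lower. Pik3cb, a catalytic subunit, was higher than in GFP Recurred cells by 1.21 (adjusted p = 0.115). At 1 dimmer probe set each, Gsk3b was lower (-0.79, limma adjusted p = 0.199) and Pik3cd higher (0.85, adjusted p = 0.095). That Pik3cd probe set was also higher in Cre minus GFP over naïve and recurred cells (0.62, adjusted p = 0.217). The brightest probe sets of these genes were not called. They averaged 9.26 in Cre Recurred and 9.35 in GFP Recurred cells for Gsk3b, and 8.26 and 7.84 for Pik3cd. Over the 17 genes the median difference between the recurred populations was -0.09, against 0.04 over all genes.

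**Figure D4:**
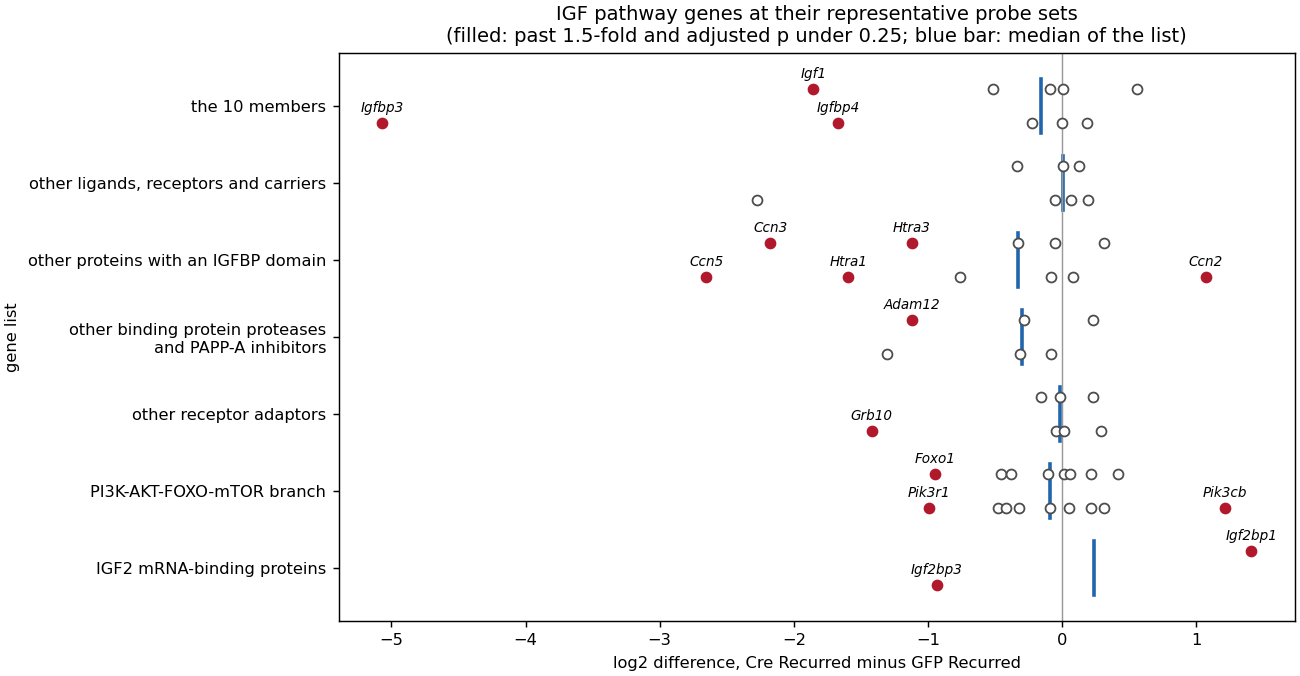
Points are the log2 differences, Cre Recurred minus GFP Recurred, of the genes of each pathway list at their brightest probe set; filled and named points passed 1.5-fold and an adjusted p under 0.25, and blue bars are list medians. Igfbp3 lies farthest from 0, at -5.07, and the unnamed open point at the left of the second row is Igf2, at -2.27.

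Finally, genes with a like pattern over the 8 arrays were sought among 749 genes. These spanned at least 2 log2 units at their brightest probe set and had a mean above that of the median probe set. Igfbp3 was most like Il16, a cytokine precursor (Pearson r = 0.99), and Nfia, a transcription factor (r = 0.99). Il16 read 4.79 and 5.98 in Cre Recurred, 8.59 and 6.81 in Cre Naïve, 8.76 and 8.51 in GFP Recurred and 7.99 and 7.31 in GFP Naïve cells, so the arrays fell in nearly the order they had for Igfbp3. Igf1 was most like Gm4951 (r = 0.95) and Ccl11, the chemokine eotaxin (r = 0.93), which read 3.90 and 4.04 in Cre Recurred and 9.65 and 10.32 in GFP Recurred cells. Igfbp4 was most like B4galnt4 (r = 0.95), a glycosyltransferase, and Ypel3 (r = 0.94). With 8 arrays in 4 populations these coefficients, which rest on the same RNA samples, are given as a description.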

How the data were processed

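Total RNA of 8 samples, 2 for each of 4 fibroblast populations, was measured on Affymetrix mouse arrays. The authors deposited log2 values from the Robust Multichip Average (RMA): background correction, quantile normalization between arrays and a summary of probes. The RMA software version is not given in the sources used here. Detection calls and probe-level files were not used here, and no depth applies to arrays, whose number limits the precision.

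Of 45101 probe sets, 64 controls were left out. Symbols came from the platform annotation, in which 34945 probe sets have 1 symbol, 932 several and 9160 none. Names from an older list were updated for 5 genes through RefSeq. For each gene the brightest probe set by its mean over the 8 arrays stands for it. A mean per population was fitted with limma 3.58.1 (R 4.3.3) on all 8 arrays, leaving 4 residual degrees of freedom (prior SD 0.166). In each of 6 comparisons p values were adjusted (Benjamini-Hochberg) across all 45037 probe sets. Calls needed 1.5-fold and an adjusted p under 0.25, as the study's methods name, or under 0.05. The study used SAM, which with 2 arrays against 2 has few permutations (the smallest exact two-sided p is 0.333), so limma is the main test and a SAM-type statistic an alternative. The fit was tested on simulated data.

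The 10 genes and the pathway and marker lists were chosen with earlier results of these data known. Named are all 10 genes, of the other lists each gene that passed the study's thresholds at any probe set and up to 2 with the smallest p in Cre Recurred minus Cre Naïve, and for each of the 10 genes that spanned 2 or more log2 units the 2 most alike. Alternatives were cyclic loess, median centring, a trended and robust prior, the 22518 brighter probe sets, the 40508 probe sets without the suffixes _x_at and _s_at, the mean of a gene's probe sets, the compared arrays alone, a replicate block and leaving out each array. Motifs were searched in RefSeq promoter windows of GRCm38.p6. Per the labels no array carries a batch name, and scan dates were not used.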

Additional observations from a re-analysis of the deposited data

Results flagged for a closer look

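For Igfbp3 the arrays lay on opposite sides with recurrence. Limma called neither recurrence difference (-3.24, adjusted p = 0.303, in Cre cells and 1.76, adjusted p = 0.871, in GFP cells). The SAM-type statistic called the one in GFP cells alone. At probe set 1423062_at both Cre Recurred arrays (3.90 and 5.60) lay below both Cre Naïve arrays (9.34 and 6.66), while both GFP Recurred arrays (9.99 and 9.66) lay above both GFP Naïve arrays (8.28 and 7.85). The difference between the recurrence effects was -5.00 on the log2 scale. Probe set 1458268_s_at of the same gene did the same, with a difference of -4.38. The test of this difference gave limma adjusted p values of 0.331 and 0.334 and missed the threshold. No group holds enough arrays for a search for outlying arrays.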

How the results depend on the processing

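With 2 arrays per population each call rests on few arrays. Leaving out an array leaves 1 in its population, whose own spread is then not measured. Calls and adjusted p values of those fits rest on the spread of the other populations. For the 28 probe sets, Cre Recurred minus GFP Recurred gave 12 calls, 8 to 14 under the other settings and 0 to 14 leaving out each array in turn (1 without GFP Recurred replicate 1, 0 without GFP Recurred replicate 2 or Cre Recurred replicate 1). Over all probe sets it gave 3988 calls, and 42 to 4985 leaving out arrays. Cre Recurred minus Cre Naïve gave 1 call, against 0 with cyclic loess, without _x_at and _s_at probe sets, with the replicate block, with the compared arrays only and with the SAM-type statistic. Leaving out arrays gave 0 to 8 calls (8 without Cre Recurred replicate 2, 3 without Cre Naïve replicate 2), and over all probe sets 19 to 2895 against 524. GFP Recurred minus GFP Naïve gave 0 calls, and 14 with the SAM-type statistic (464 of all, against 6). The interaction gave 0 calls, and 0 to 13 leaving out arrays (13 without Cre Recurred replicate 2, 4 without Cre Naïve replicate 2). Cre minus GFP over naïve and recurred cells gave 5 calls, 3 with a trended and robust prior, 0 with the replicate block and 0 to 6 leaving out arrays. Cre Naïve minus GFP Naïve gave 0 throughout. Over all probe sets and with the 8 arrays, the interaction gave 180 calls and Cre minus GFP over naïve and recurred cells 580. The interaction's calls over all probe sets also rose without Cre Recurred replicate 2 and without Cre Naïve replicate 2. Those of Cre minus GFP also rose without Cre Naïve replicate 1, where the 28 probe sets gave their 6. The rise in calls was therefore not limited to the 28. The cause of these changes was not tested, except that leaving out an array leaves fewer samples. At the level of single genes, 66 differences were recomputed under 1054 alternatives: 997 kept their side of the threshold, 35 lost a call, 22 gained one and 0 called values changed sign. Most of the 66 were not called in the main fit, so the 997 mostly counts differences that stayed uncalled. The 35 lost calls fall on the few differences that were called. Below 1.5-fold the sign differed in 49 alternatives. Replicate numbers are shared by the populations. Deviations of same-numbered arrays correlated between -0.25 and 0.31 over the 6 pairs of populations, so the numbers were not taken to pair the samples. With the replicate block Igf1 and Igfbp3 lost their calls in Cre minus GFP (adjusted p = 0.265 each), and 12 of 28 calls were counted between the recurred populations.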
